A study of Mus musculus with 14 samples.

Results

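The genes described here are 10 histone deacetylases (HDACs) of the mouse, chosen by name: Hdac1, Hdac2, Hdac3 and Hdac8 of class I, Hdac4, Hdac5, Hdac7 and Hdac9 of class IIa, Hdac6 of class IIb and Hdac11 of class IV. They are 10 of the 23284 genes counted, and all 10 had enough counts to be tested among 14804 genes. RNA was sequenced from 14 primary tumours of mouse small cell lung cancer, 1 library each. The 7 RPC libraries carry the genotype Rb1/Trp53/Crebbp, in which the tumour suppressor genes Rb1 and Trp53 and the histone acetyltransferase gene Crebbp are targeted. The 7 RP libraries carry the genotype Rb1/Trp53, so the targeting of Rb1 and Trp53 is common to both groups. The labels used here name no Cre driver, allele form or age, and they do not say whether any mouse gave more than 1 tumour. The p-values therefore measure the spread between these libraries only.

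HDACs remove acetyl groups from lysines of histones and other proteins, the reverse of the reaction that Crebbp and its paralog Ep300 catalyse. Of the class I enzymes, Hdac1 and Hdac2 work inside the nuclear corepressor complexes NuRD, SIN3 and CoREST, and Hdac3 in the NCoR complex. Class IIa proteins have little deacetylase activity of their own, bind MEF2 transcription factors, and leave the nucleus when kinases phosphorylate them and 14-3-3 proteins bind. Hdac6 is a cytoplasmic deacetylase of tubulin, and Hdac11 is a class IV enzyme with defatty-acylase activity. The title of the series links Crebbp loss with sensitivity to HDAC inhibitors, and the comparison here asks how the transcripts of the HDAC classes differ between the genotypes.

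The libraries held between 10060969 and 24052799 counts in genes. Small cell lung cancer markers were present throughout, with Insm1, a neuroendocrine transcription factor, between 375 and 1049 CPM (counts per megaread of library size, normalized by TMM) in RPC libraries and between 332 and 817 CPM in RP libraries. Chga, which encodes the granule protein chromogranin A, was between 215 and 887 CPM in RPC libraries and between 263 and 1022 CPM in RP libraries. Crebbp was at 64.8 ± 4.25 CPM in RPC and 76.7 ± 13.9 CPM in RP libraries (SD, n = 7 each), and the ranges overlapped (edgeR adjusted p = 0.264). A count over the whole gene includes undeleted exons and other cells, so it does not check the genotype. RPC tumours 3, 5 and 6 stood apart most clearly in macrophage transcripts. Summed CPM of 10 macrophage markers was 5.13, 8.58 and 8.22 there, against 493 to 2087 in the other RPC libraries and 574 to 1548 in RP libraries. The summed endothelial markers (10 genes) were at 18.5, 92.4 and 8.85 CPM in those tumours, against 69.4 to 430 in the other RPC and 128 to 345 in RP libraries, and Cdh5, Tie1, Emcn, Cldn5 and Robo4 were at 0 in all 3 of them. RPC tumour 5 was thus inside the range of the other RPC libraries in this sum. Summed fibroblast markers (8 genes) were at 5.13, 126 and 6.17 CPM in tumours 3, 5 and 6. They were at 305 to 691 in the other RPC and 257 to 916 in RP libraries. Log2 fold changes were negative for 9 of 10 endothelial and 7 of 8 fibroblast markers. The exceptions, Kdr and Pdgfra, reached 82.9 and 117 CPM in an RPC library, against at most 29.4 and 39.1 CPM in RP libraries. The macrophage marker Emr1 was at 0 in RPC tumours 3, 5 and 6, and so were Cd3e, Nkg7 and Gzma of T and NK cells, Ms4a1 of B cells, and Lamp3 of alveolar cells. Each comparison was therefore also fitted without these 3 libraries. In bulk tumours fewer cells of a type and less RNA per cell cannot be told apart.

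Of the 10 HDAC genes Hdac5 alone passed the test, and it was lower in RPC than in RP tumours. The fold change was positive for 4 of 4 class I genes, with a median log2 fold change of 0.54, and negative for 4 of 4 class IIa genes, with a median of -0.38. Over all genes tested the median was 0.00215, with 50.2% of fold changes above 0 and 49.8% below. Hdac5 fell (edgeR quasi-likelihood test, Benjamini-Hochberg adjusted over all genes), which makes 1 lower and 0 higher of 10, beside a background of 2.21% of genes called in either direction, 1.12% lower and 1.09% higher. At an unadjusted p under 0.05 there were 6 of 10, 4 of them higher and 2 lower, where 21.3% of all genes reached that level, 10.3% higher and 11.1% lower. Without RPC tumours 3, 5 and 6, 0 of the 10 were called and 3 had an unadjusted p under 0.05, beside backgrounds of 0.0716% and 11.9% of genes. The signs of the class I and class IIa genes were the same in that fit, with medians of 0.36 and -0.42, but Hdac1 (0.05, SE 0.17) and Hdac4 (-0.04, SE 0.29) were then well within 1 SE of 0. With single libraries left out, the sign of Hdac9 also reversed in 3 of 14 fits.

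**Figure D1:**
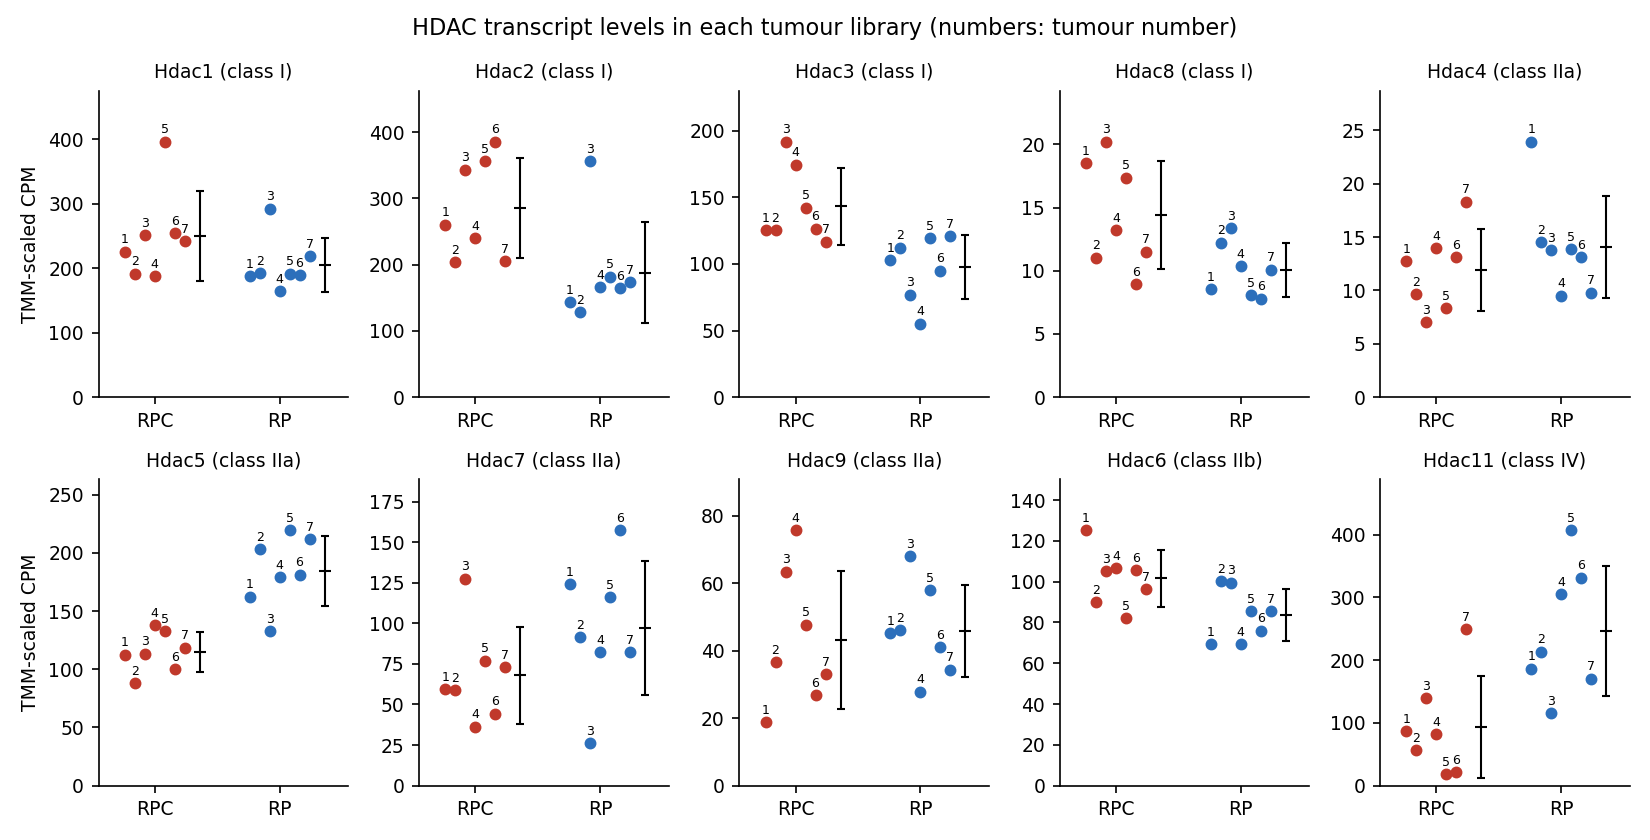
TMM-scaled CPM of the 10 HDAC genes in each library, RPC on the left and RP on the right of each panel, with a linear axis from 0. Points carry the tumour number, and the bar beside them is the mean with the SD (n = 7). RPC values of Hdac5 lie between 87.9 and 138 CPM and RP values between 133 and 220 CPM, and Hdac11 spreads most.

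Among class I genes, Hdac1 encodes a catalytic subunit of NuRD, SIN3 and CoREST. It ranged from 188 to 397 CPM in RPC libraries (median 242) and from 165 to 292 CPM in RP libraries (median 192). The high RPC value was tumour 5 and the high RP value tumour 3, and the groups overlapped in most of their range. The log2 fold change was 0.28 (SE 0.18, edgeR adjusted p = 0.367), it was 0.14 without RPC tumour 5, and it was 0.05 (SE 0.17) without RPC tumours 3, 5 and 6. An annotated pseudogene, Hdac1-ps, exists in the RefSeq table, so reads that fit both copies make the level of Hdac1 uncertain.

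Hdac2 encodes the close paralog that shares these complexes. It ranged from 204 to 386 CPM in RPC libraries (median 260) and from 128 to 356 CPM in RP libraries (median 166). RP tumour 3, at 356 CPM, was the single RP library above 182 CPM, while all 7 RPC libraries were above that level. The difference, 0.60 on the log2 scale (SE 0.23), missed the threshold (edgeR adjusted p = 0.156). Hdac2 passed when RP tumour 3 was left out (0.84, SE 0.18, edgeR adjusted p = 0.0233). It was at 0.28 (SE 0.25, edgeR adjusted p = 0.735) without RPC tumours 3, 5 and 6, whose values of 344, 357 and 386 CPM were the highest of the RPC group. Per kilobase of transcript, Hdac2 stood at 0.73 ± 0.15 of the level of Hdac1 in RPC and at 0.56 ± 0.11 in RP libraries (SD, n = 7 each), with ranges from 0.53 to 0.95 and from 0.42 to 0.76.

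Hdac3, the catalytic subunit of the NCoR complex, ranged from 117 to 192 CPM in RPC libraries (median 126) and from 55.2 to 121 CPM in RP libraries (median 103). In 6 of 7 RPC libraries it was above every RP library, the exception being RPC tumour 7. The log2 fold change was 0.56 (SE 0.18, edgeR adjusted p = 0.104), and 0.48 (SE 0.21, edgeR adjusted p = 0.393) without RPC tumours 3, 5 and 6. Hdac3 lies on chromosome 18, whose genes were lower in RP tumours 3 and 4. A score for each library, the median over 283 other chromosome 18 genes of the log2 distance from the gene's median, was -0.48 and -0.68 there, against -0.06 to 0.08 in the other RP libraries and -0.005 to 0.22 in RPC libraries. Those are the libraries in which Hdac3 was lowest, at 77.0 and 55.2 CPM. With the score subtracted, the genotypes differed in Hdac3 by 0.32 in mean log2 CPM, a measure other than the edgeR fold change. Without RP tumours 3 and 4 the fold change was 0.38 (SE 0.15, edgeR adjusted p = 0.146), and the part of chromosome 18 in the difference was not tested.

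Hdac8, an X-linked class I enzyme that deacetylates the cohesin subunit SMC3 in human cells, was the class I gene with the fewest counts, 100 to 422 a library. It ranged from 8.94 to 20.2 CPM in RPC libraries (median 13.2) and from 7.80 to 13.4 CPM in RP libraries (median 10.1). The values of 3 RPC libraries were above every RP library, and the log2 fold change was 0.52 (SE 0.24, edgeR adjusted p = 0.221). The score of 363 other X-linked genes differed by 0.14 in the same direction.

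**Figure D2:**
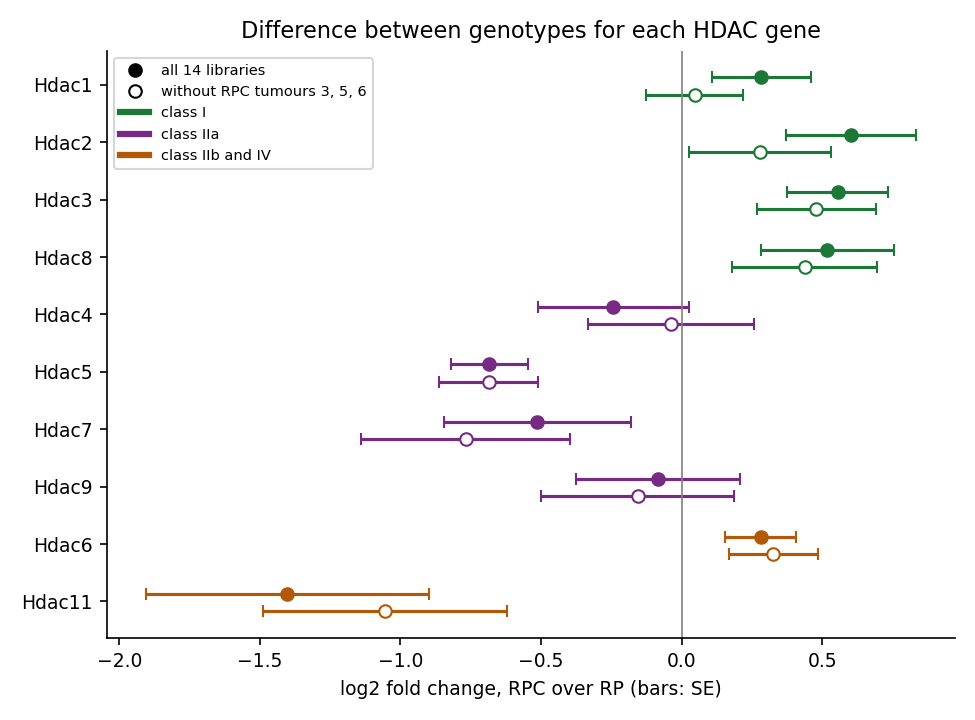
Log2 fold change of RPC over RP for each HDAC gene, with SE bars, from the edgeR fit of all 14 libraries (filled) and of the 11 libraries without RPC tumours 3, 5 and 6 (open). Class I genes lie right of 0 and class IIa genes left of 0 in both fits, and Hdac5 keeps a fold change of -0.68 and -0.69.

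Among class IIa genes, Hdac5 encodes a signal-responsive corepressor of MEF2 factors. Hdac5 was at 87.9, 99.9, 113, 113, 119, 132.7 and 138 CPM in the 7 RPC libraries, against 132.8, 162, 179, 181, 203, 212 and 220 CPM in the 7 RP libraries. In 6 of 7 RPC libraries it was below every RP library, and the overlap came from RPC tumour 4 and RP tumour 3. The means were 115 ± 17.4 CPM in RPC and 184 ± 30.3 CPM in RP libraries (SD, n = 7 each), and Hdac5 fell by 37.7% (log2 fold change -0.68, SE 0.14, edgeR adjusted p = 0.0246). Of the 14804 genes tested, 2.7% had at least 6 of 7 RPC libraries below every RP library, and 4.59% had them above or below, as Hdac3 and Hdac5 did among the 10 HDAC genes. The call of Hdac5 was lost without RPC tumours 3, 5 and 6 (-0.69, SE 0.17, edgeR adjusted p = 0.161) and with the average log2 CPM of 41 stromal and immune or lung markers added to the model (-0.70, SE 0.17, edgeR adjusted p = 0.182). It was also lost without RP tumour 5, RP tumour 6 or RPC tumour 3 (edgeR adjusted p = 0.05002, 0.0512 and 0.0536).

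Hdac7, known for its part in endothelial cells and thymocytes, ranged from 36.4 to 128 CPM in RPC libraries (median 59.3) and from 26.4 to 157 CPM in RP libraries (median 91.5). Its spread within each genotype was wide, with a coefficient of variation of 43.9% in RPC and 42.5% in RP libraries. The log2 fold change was -0.51 (SE 0.33, edgeR adjusted p = 0.39). Hdac7 overlaps Slc48a1 in the RefSeq annotation. Each file has a row for ambiguous reads, which held 0.883% to 1.09% of the counts. Without stated strand and overlap settings, how many Hdac7 reads went to that row is not known.

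Hdac9, a MEF2-binding class IIa member known in muscle and brain, ranged from 18.8 to 75.8 CPM in RPC libraries (median 36.6) and from 27.9 to 68.0 CPM in RP libraries (median 45.3). RPC libraries held both the lowest and the highest values, so that 2 were below and 1 above every RP library. Its log2 fold change was -0.09 (SE 0.29, edgeR adjusted p = 0.886), and the sign turned positive when RP tumour 3, RPC tumour 1 or RPC tumour 6 was removed (0.038, 0.046 and 0.0047). Hdac4, a regulator of chondrocyte and muscle gene expression, ranged from 7.02 to 18.3 CPM in RPC libraries (median 12.7) and from 9.51 to 23.9 CPM in RP libraries (median 13.8). Its log2 fold change was -0.24 (SE 0.27, edgeR adjusted p = 0.621), on counts that went down to 67 in a library. It was -0.07 (SE 0.24) without RP tumour 1, which held the highest value, -0.15 (SE 0.27) without RPC tumour 3, -0.38 (SE 0.27) without RPC tumour 7, and -0.04 (SE 0.29) without RPC tumours 3, 5 and 6.

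Hdac6 was the steadiest of the 10 genes in RPC and RP libraries alike, with coefficients of variation of 13.7% and 15.5%. It ranged from 82.0 to 125 CPM in RPC libraries (median 105) and from 69.2 to 100.3 CPM in RP libraries (median 85.4). In 4 of 7 RPC libraries it was above every RP library, and the log2 fold change was 0.28 (SE 0.13, edgeR adjusted p = 0.216). Hdac6 lies on the X chromosome, whose score differed by 0.14.

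Hdac11 varied most, 21.9-fold between its lowest and highest library. It was at 18.6, 21.1, 56.7, 81.9, 86.8, 139 and 250 CPM in the RPC libraries, against 115, 171, 186, 214, 305, 332 and 407 CPM in the RP libraries. The lowest values were in RPC tumours 5 and 6, and RPC tumour 7 lay inside the RP range. In 5 of 7 RPC libraries Hdac11 was below every RP library. The difference, -1.40 on the log2 scale (SE 0.50), was the largest of the 10 in size, but it did not pass (edgeR adjusted p = 0.133). It passed without RPC tumour 7 (-1.87, SE 0.46, edgeR adjusted p = 0.0356), and it was -1.06 (SE 0.43, edgeR adjusted p = 0.355) without RPC tumours 3, 5 and 6.

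Promoter sequences, from 250 bases before to 50 bases after the annotated start, were read from the RefSeq table of the GRCm38.p6 build for 8 of the 10 genes, 12 starts in all. Hdac1 and Hdac3 had no entry. Crebbp was named for its binding to CREB, which recognises the cAMP response element TGACGTCA. This motif was in 0 of the 12 windows, against 1.79% of 32851 promoters. Its core, TGACG or CGTCA on either strand, which the full element contains, was in the windows of Hdac4, Hdac5 and Hdac11, and in 20.8% of all promoters. The windows of Hdac5, the gene that fell, and Hdac11, with the largest fold change, are shown with matches to the core in capitals. They lie at chr11:102230123-102230422 on the minus strand and at chr6:91156565-91156864 on the plus strand, and each reads 5′ to 3′ along its gene. A match describes the letters only and is not evidence of binding.
Hdac5: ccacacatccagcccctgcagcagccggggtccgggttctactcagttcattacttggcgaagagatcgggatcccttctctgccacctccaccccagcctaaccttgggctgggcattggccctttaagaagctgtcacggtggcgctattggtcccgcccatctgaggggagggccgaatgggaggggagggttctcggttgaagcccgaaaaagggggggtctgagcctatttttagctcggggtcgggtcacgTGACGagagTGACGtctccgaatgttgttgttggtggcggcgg
Hdac11: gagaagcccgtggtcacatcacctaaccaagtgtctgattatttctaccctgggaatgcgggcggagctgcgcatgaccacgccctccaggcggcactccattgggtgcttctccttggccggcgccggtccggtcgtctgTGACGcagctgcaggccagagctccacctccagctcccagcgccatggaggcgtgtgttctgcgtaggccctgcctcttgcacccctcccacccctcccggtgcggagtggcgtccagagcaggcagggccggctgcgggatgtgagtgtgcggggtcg

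Levels of different genes were compared as CPM per kilobase of the longest protein-coding transcript. On this scale Hdac1 led with a median of 101 over the 14 libraries and was above Hdac2 in 14 of 14. Hdac2 (62.9), Hdac3 (59.0) and Hdac11 (58.5) followed with ranges that overlapped, and Hdac2 was above Hdac3 in 9 of 14 libraries and Hdac3 above Hdac11 in 6 of 14. Next came Hdac5 (27.9), Hdac6 (22.5) and Hdac7 (18.8), each overlapping its neighbour. Hdac8 and Hdac9, at 5.82 and 5.44, did not differ beyond their spread, and Hdac4 was the lowest at 1.62, below Hdac9 in 14 of 14 libraries. This order pools the genotypes, and it differed between them. In RPC libraries the median of Hdac11 (30.9) was below those of Hdac2 (80.1) and Hdac3 (62.2), and in RP libraries Hdac11 (80.6) was above Hdac2 (51.2) and Hdac3 (50.6). Hdac6 (25.4) was above Hdac5 (23.4) in RPC libraries and, at 20.6, below Hdac5 (37.4) in RP libraries.

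Summed within classes, class I came to 288 ± 56.5 CPM per kilobase in RPC libraries and 212 ± 42.4 in RP libraries (SD, n = 7 each). Class IIa came to 46.6 ± 9.19 in RPC and 68.5 ± 13.04 in RP libraries. The sum of all 10 genes was 395 ± 59.5 in RPC and 393 ± 41.8 in RP libraries, a difference within the spread between libraries. Class I made up 73.0 ± 7.77% of the sum in RPC and 53.9 ± 9.84% in RP libraries, and class IIa made up 11.8 ± 1.30% in RPC and 17.5 ± 3.20% in RP libraries. Hdac11 made up 8.86 ± 7.15% in RPC and 23.4 ± 8.41% in RP libraries. The ratio of class IIa to class I was between 0.12 and 0.20 in the RPC libraries, against 0.30 to 0.42 in 6 of the RP libraries. RP tumour 3 stood at 0.15, inside the RPC range, with high Hdac1 and Hdac2 and the lowest RP values of Hdac5, Hdac7 and Hdac11. Without RPC tumours 3, 5 and 6 the mean class I sum of the RPC libraries was 247.5, nearer to the 212 of RP libraries than the 288 with them, and the mean class IIa sum was 43.9. The mean ratio was then 0.18, and it was 0.16 with all 7. These sums are given as a description with no test.

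**Figure D3:**
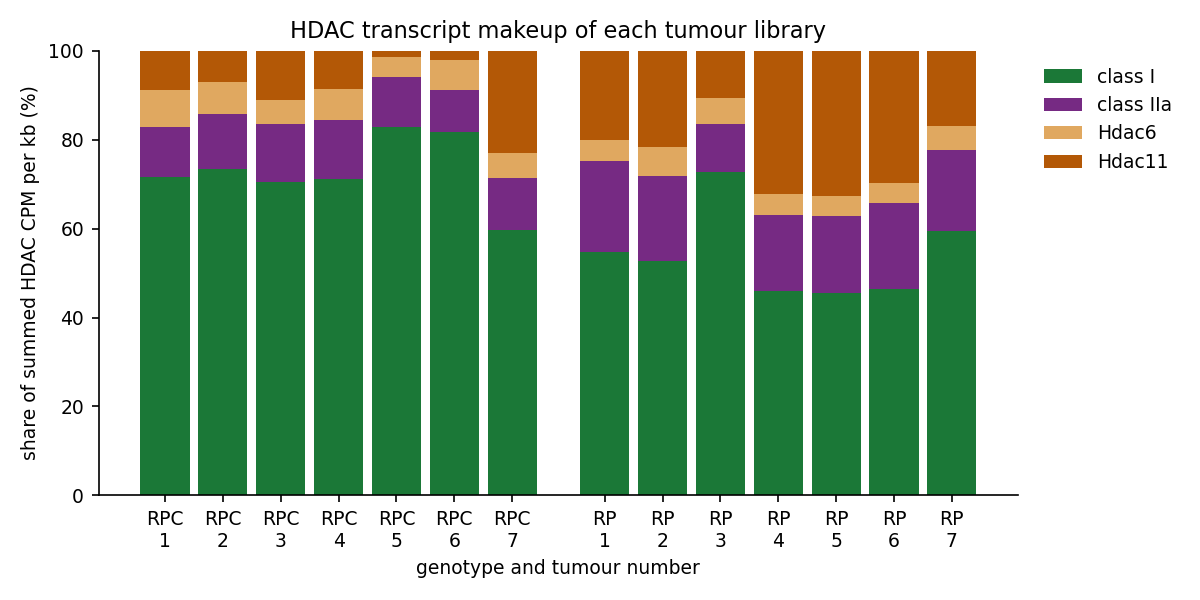
Share of class I, class IIa, Hdac6 and Hdac11 in the summed CPM per kilobase of the 10 HDAC genes, 1 bar a library, RPC tumours on the left and RP tumours on the right. Class I takes 59.7% to 82.8% in RPC and 45.4% to 72.8% in RP libraries.

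**Figure D4:**
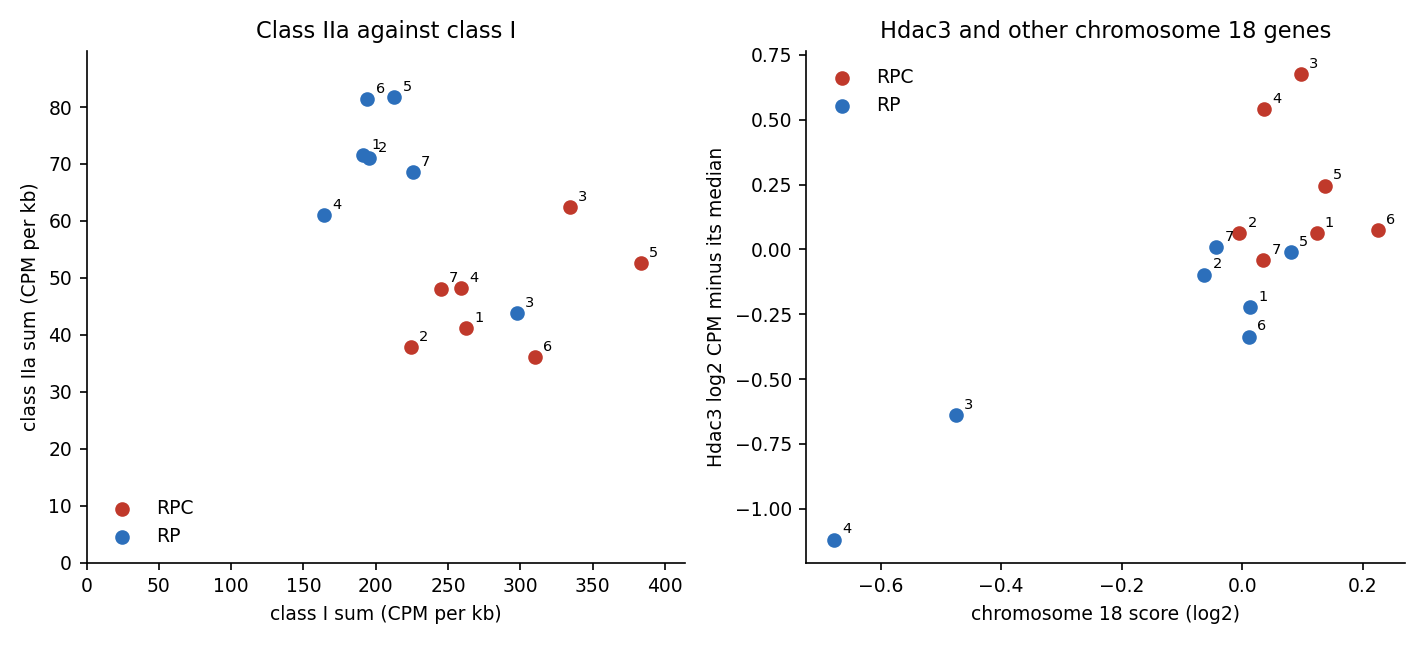
Left, summed CPM per kilobase of class IIa against class I in each library. Right, Hdac3 log2 CPM minus its median against the chromosome 18 score in log2 units. Numbers are tumour numbers. RP tumour 3 lies among the RPC tumours on the left, and RP tumours 3 and 4 are lowest on both axes on the right.

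The 3 genes most alike in pattern to a member, by Pearson's r of log2 CPM over the 14 libraries, are given as a description for the HDAC gene with the smallest p in class I, in class IIa, and of Hdac6 and Hdac11. For Hdac5 they were Kbtbd11 (r = 0.92, and 0.92 over the 11 libraries without RPC tumours 3, 5 and 6), the neuronal RNA-binding gene Celf3 (0.91 and 0.93) and Sgsm1 (0.88 and 0.87). Genes picked for following Hdac5 have its direction through the choice, so their differences carry no test here. Celf3 was at a median of 148 CPM in RPC and 355 CPM in RP libraries. For Hdac3 they were Phax (r = 0.92 and 0.90), which encodes an RNA export adaptor, Cdc23 (0.91 and 0.90), an anaphase-promoting complex subunit, and D7Ertd715e (0.90 and 0.93). Phax and Cdc23 lie on chromosome 18, as Hdac3 does. For Hdac11 they were Tpra1 (r = 0.94 and 0.89), Ccdc68 (0.93 and 0.82) and Sspo (0.91 and 0.84), and Tpra1 and Sspo lie on chromosome 6 with Hdac11. The score of chromosome 6 differed by -0.03 between the genotypes, and with it subtracted Hdac11 differed by -1.75 in mean log2 CPM. That measure is not the edgeR fold change. The mean log2 distance of Hdac11 from its median was -1.22 in RPC and 0.56 in RP libraries before the subtraction, and -1.21 and 0.54 after it. For Hdac5 the score of chromosome 11 differed by 0.004, and with it subtracted Hdac5 differed by -0.68 in mean log2 CPM. For Hdac2 on chromosome 10 these values were -0.02 and 0.65. The part of stromal content and chromosome levels in r was not tested. A high r names genes that varied together and no more.

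The partners of the HDACs were called about as often as all genes. Of 89 partner genes, all tested, 2 rose and 0 fell in edgeR, or 2.25%, against the background of 2.21% of all genes. Their median log2 fold change was 0.03, against 0.00215 over all genes. It was positive for 54 of 89, where 50.2% of all genes were positive. Without RPC tumours 3, 5 and 6 none of the 89 was called by edgeR, at a background of 0.0716%.

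In NuRD, the remodelling and deacetylase complex of Hdac1 and Hdac2, 1 of 13 genes rose and 0 fell in edgeR (median 0.02, 1 higher and 1 lower at an unadjusted p under 0.05). Mta2, a scaffold subunit, ranged from 128 to 195 CPM in RPC libraries (median 165) and from 73.9 to 124 CPM in RP libraries (median 101). The groups did not overlap, which was so for 1.15% of all genes and for 0 of the 10 HDAC genes. Its log2 fold change was 0.72 (SE 0.14, edgeR adjusted p = 0.0246). Mta2 lies on chromosome 19, where 500 tested genes had a median log2 fold change of 0.46. The score of that chromosome differed by 0.54 between the genotypes, and with it subtracted Mta2 differed by 0.19 in mean log2 CPM. The part of chromosome 19 in the call of Mta2 was not tested. Mbd2, a methyl-CpG-binding subunit, was the lower one, with medians of 78.0 CPM in RPC and 147 CPM in RP libraries (log2 fold change -0.61, SE 0.19, edgeR adjusted p = 0.0921). DESeq2 called it, as did edgeR without RP tumour 3, without RPC tumour 7, and without RP tumours 3 and 4. Chd4, the ATPase of NuRD and its most abundant transcript, was at 0.01 (SE 0.14, edgeR adjusted p = 0.964).

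In the SIN3 list 1 of 16 genes rose and 0 fell in edgeR (median 0.04, 2 higher and 0 lower at an unadjusted p under 0.05), and its most abundant transcript, Phf12, was at 0.04 (SE 0.13). Brms1l, a subunit of this complex, ranged from 45.1 to 99.6 CPM in RPC libraries (median 65.8) and from 34.1 to 51.8 CPM in RP libraries (median 44.5). In 6 of 7 RPC libraries it was above every RP library, and its log2 fold change was 0.67 (SE 0.16, edgeR adjusted p = 0.0443). Mta2 and Brms1l had edgeR adjusted p of 0.188 and 0.264 without RPC tumours 3, 5 and 6. Leaving out RP tumour 4, 5 or 6 or RPC tumour 3 ended the call of Mta2, and Brms1l stayed called in 3 of 14 such fits, those that dropped RP tumour 3, RPC tumour 4 and RPC tumour 7. In CoREST 0 of 10 genes passed (7 positive, median 0.19, 3 at an unadjusted p under 0.05 in edgeR), with Zmym2 at 0.48 (SE 0.17, edgeR adjusted p = 0.126) and Gse1, the most abundant, at -0.17 (SE 0.23).

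In MiDAC, the mitotic deacetylase complex, 0 of 3 passed in edgeR (1 at an unadjusted p under 0.05), and its scaffold gene, listed as C130039O16Rik, was at -0.51 (SE 0.16, edgeR adjusted p = 0.0887).

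Of the genes around the class IIa proteins, 0 of 4 MEF2 genes, 0 of 15 kinases and 0 of 7 genes of the Ywha and Sfn family of phosphoserine-binding proteins passed in edgeR, with medians of -0.33, 0.11 and 0.14. Mef2d, with the smallest p of its list, was at -0.27 (SE 0.18, edgeR adjusted p = 0.398). Mef2a, the most abundant, ranged from 33.8 to 245 CPM in RPC libraries (median 56.3) and from 37.3 to 73.5 CPM in RP libraries (median 53.6). Camk4, a calcium-dependent kinase whose gene lies on chromosome 18, was at 1.42 (SE 0.46, edgeR adjusted p = 0.102). Sfn, an epithelial member of its family, was at -1.39 (SE 0.47, edgeR adjusted p = 0.116). Mark3 and Ywhaz, the most abundant of their lists, were at 0.34 and -0.29 on the log2 fold change scale. At an unadjusted p under 0.05 there were 0 MEF2 genes, 5 kinases (3 higher, 2 lower) and 1 of the third list.

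No sirtuin and no gene of the Hdac6 list was called in the main edgeR fit (TMM scaling, all 14 libraries). Of the 7 sirtuins, the NAD-dependent deacetylase family, Sirt1 had the smallest p, at 59.7 CPM in RPC and 43.1 CPM in RP libraries by median (log2 fold change 0.44, SE 0.12, edgeR adjusted p = 0.0634; 1 of 7 at an unadjusted p under 0.05), and Sirt2, the most abundant, was at 0.01 (SE 0.16). Sirt1 was called higher by DESeq2, and by edgeR with upper-quartile scaling, without RP tumour 3 or without RPC tumour 7. The 6 genes tied to Hdac6 and tubulin had a median of 0.01 (Hsp90aa1, a chaperone that Hdac6 deacetylates, was at 0.23), with 0 of the 6 at an unadjusted p under 0.05 in edgeR. Hdac10, a class IIb gene outside the 10, was at 42.2 ± 18.7 CPM in RPC and 31.1 ± 10.02 CPM in RP libraries (SD, n = 7 each), and its log2 fold change was 0.44 (SE 0.29, edgeR adjusted p = 0.402). It was 0.77 (SE 0.29, edgeR adjusted p = 0.314) without RPC tumours 3, 5 and 6. Ep300 was at 160 ± 24.9 CPM in RPC and 171 ± 46.2 CPM in RP libraries (edgeR adjusted p = 0.776).

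**Figure D5:**
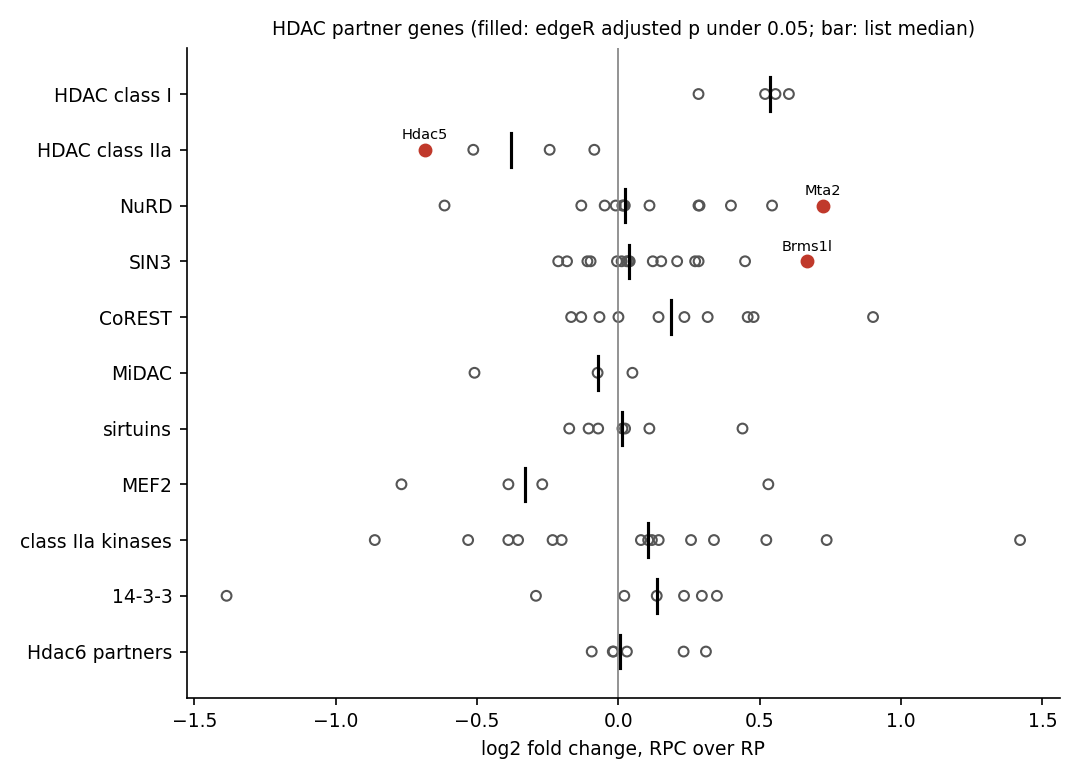
Log2 fold change of RPC over RP for the class I and class IIa HDAC genes and for 9 lists of partners, 1 point a gene, filled where the edgeR adjusted p was under 0.05, with the list median as a bar. Hdac5 is called lower and Mta2 and Brms1l higher, and the medians of the partner lists shown lie between -0.33 and 0.19.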

How the data were processed

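RNA of 14 tumours was measured, 1 deposited file per library. Each file gives raw read counts per gene symbol, with no normalization by the authors. Per the labels' protocols, RNA was isolated with TRIzol, polyadenylated RNA was selected and libraries were made with a NEBNext Ultra kit. The genome build was mm9 and the tools were TopHat2 2.0.12, HTSeq 0.6.1 and bcl2fastq 1.8.2, per the submitters' processing notes. Settings, annotation and strand use: not given in the sources used here. The 5 rows that name no gene, 25.9% to 31.5% of the counts in a file, were left out. No 2 libraries of a genotype were a repeat of 1 library (the lowest chi-square per degree of freedom of 42 pairs was 59.2).

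The main model was fitted with edgeR 4.0.16 in R 4.3.3, with filterByExpr (minimum count 10, total 15), TMM scaling and the quasi-likelihood F test between the genotypes, all 14 libraries and no covariate, Benjamini-Hochberg adjusted over 14804 genes and called at 0.05. The SE is the size of the log2 fold change divided by the root of F. CPM values use TMM-scaled library sizes, and log2 CPM a prior count of 2. The fit was tested on simulated data.

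Transcript lengths are those of the longest GENCODE M21 protein-coding transcript. Chromosomes and overlaps are those of RefSeq (GRCm38.p6), found for 14708 of 14804 tested genes, and motifs were searched in its promoter windows. Chromosome scores use genes with a mean log2 CPM above 3. DESeq2 1.42.0, limma-voom (limma 3.58.1), other scalings and filters, a replicate block, a term for 41 non-tumour markers and left-out libraries were alternatives. Leaving out RP tumours 3 and 4 was added after seeing the data. The members, lists and tests were chosen with earlier results of these data known. Named genes are all members, list genes past the threshold, the smallest p and highest CPM of a described list, and the 3 genes most alike to 1 member of each class. Some genes and 2 of the partner lists are not reported here by name or value. Chga and Insm1 come from the tumour marker list, and Mbd2, Kdr and Pdgfra were named after their values were seen.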

Additional observations from a re-analysis of the deposited data

Results flagged for a closer look

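Of 20 sets of 7 values, 1 for each gene and genotype, 4 held a library whose gap to its nearest neighbour was wide for the range of the set. The limit was one that about 1 in 20 independent sets would pass by chance. These sets share the same 14 libraries, and RP tumour 3 was flagged for both Hdac1 and Hdac2. The count is therefore a description and not a test against chance. Hdac1 was at 397 CPM in RPC tumour 5, the next RPC library being at 254 CPM, and at 292 CPM in RP tumour 3, the next RP library being at 219 CPM. Hdac2 was at 356 CPM in RP tumour 3, the next being at 182 CPM. Hdac4 was at 23.9 CPM in RP tumour 1, the next being at 14.5 CPM. RP tumour 3 was also the RP library lowest in Hdac5, Hdac7 and Hdac11.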

How the results depend on the processing

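The directions of the 10 genes were kept under every alternative except for Hdac9, which was at -0.28 to 0.046 with 1 library left out and turned positive in 3 of those fits (0.038 with RP tumour 3 removed, 0.046 with RPC tumour 1 removed, 0.0047 with RPC tumour 6 removed). In the 14 fits that left out 1 library, the number of HDAC genes called was from 0 to 2, of all genes from 51 (without RP tumour 6) to 898 (without RP tumour 3) and of partner genes from 0 to 8. The Hdac5 log2 fold change stayed between -0.75 and -0.63 there, with an edgeR adjusted p of 0.00922 to 0.0536, and the class IIa share differed by -6.80 to -5.17 percentage points (-5.67 over all libraries). DESeq2 called 3 HDAC genes (Hdac3, Hdac5 and Hdac11), 8 partner genes and 1431 genes in all, and limma-voom called 503 in all. Without a filter on low counts Hdac5, 1 partner gene and 277 of 20051 genes in all were called. With the non-tumour term edgeR called 0 HDAC genes (1 at an unadjusted p under 0.05), 0 partner genes and 7 genes in all, and without RPC tumours 3, 5 and 6 they were 0, 0 and 11. Without RP tumours 3 and 4, 2 HDAC genes (Hdac2 and Hdac5), 1 partner gene (Mbd2) and 272 of 15043 genes in all were called. With the replicate number as a block edgeR called 0 HDAC genes (4 at an unadjusted p under 0.05), 0 partner genes and 74 genes in all, and Hdac5 had an edgeR adjusted p of 0.0644 at -0.68. Whether libraries with the same number form pairs is not settled by these data. Deviations of 3 of 7 same-numbered pairs correlated above 0.1 (range -0.05 to 0.32). Of the 7 RPC libraries, 3 correlated best with their own number. Where a count moved, the cause was not tested. The lowest counts of a member in a library were 67 for Hdac4 and 100 for Hdac8.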
